A study of Mus musculus with 24 samples.

Results

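Lgr5high and Lgr5med cells of the small-intestinal crypt were compared within the same mice after neuregulin 1 (NRG1) treatment. The comparison used 6 of the 24 libraries of the study, 1 Lgr5high and 1 Lgr5med library from each of 3 mice, and asked how distinct stem cells and their immediate progenitors are under NRG1. The same 6 libraries from 3 vehicle-treated (PBS) mice were used beside it. All mice were male C57BL/6 littermates carrying the Lgr5-EGFP reporter, and the labels name that allele no further. NRG1 mice received 7.5 µg of NRG1 intraperitoneally every 12 h for 5 days, PBS mice received the vehicle on that schedule, and tissue was taken on day 6. In both treatments replicate 3 was the younger mouse, at 11 weeks against 15 weeks for the others, so age and replicate 3 cannot be told apart. Cells were sorted without propidium iodide, CD31 or CD45 signal. By the labels, Lgr5high-CD24low cells are crypt base columnar stem cells and Lgr5med-CD24low cells are immediate progenitors. Lgr5low-CD24low (subsequent progenitors) and Lgr5neg-CD24neg (differentiated cells) libraries of the same NRG1 mice were used only to place the levels.

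Crypt base columnar cells carry the receptor LGR5, which binds R-spondins and strengthens Wnt signalling, and they divide to replace themselves and to feed the transit-amplifying progenitors above them. Progenitors that escape Notch signalling turn on Atoh1 and enter secretory lineages (among them goblet, enteroendocrine and Paneth cells), and most others become absorptive enterocytes. NRG1 is an epidermal growth factor family ligand that binds ERBB3 and ERBB4, which signal mostly as partners of ERBB2 and EGFR.

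The 6 NRG1 libraries held 18241663 to 21993032 counts each, of which 42.1% to 44.6% were the mitochondrial ribosomal RNAs. Levels are given as CPM, the counts scaled to library size. A gene at 0 counts could still stand at up to 3 counts, or 0.136 to 0.164 CPM in these libraries, which covers counting error only. Epithelial markers were present in all 6 libraries, with Epcam at 787 to 856 CPM. The summed level of 18 immune markers was 6.10 to 9.27 CPM in Lgr5high and 6.40 to 9.07 CPM in Lgr5med libraries, with Cd3d and Cd8b1 at 0 in all 6. For 13 endothelial markers the sums were 10.1 CPM against 7.79 to 9.57 CPM, with Cdh5, Kdr, Tie1, Emcn and Cldn5 at 0. For 15 mesenchymal and muscle markers they were 2.70 to 3.61 against 4.56 to 11.9 CPM, with 8 of the 15 at 0, and their part in the results was not tested.

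Lgr5, whose reporter set the gates and which therefore checks the labels only, stood at 277, 173 and 192 CPM in the Lgr5high libraries of NRG1 replicates 1, 2 and 3 and at 93.4, 50.5 and 54.6 CPM in the Lgr5med libraries (chromosome 10, 115450311 to 115587780). The groups did not overlap, and the ratio of the means was 3.24. In PBS mice the levels were 276, 125 and 225 CPM against 62.4, 19.3 and 23.4 CPM. Cd24a, whose product was the other sort marker, was at 558 ± 94.3 and 546 ± 146 CPM in NRG1 mice (SD, n = 3) and overlapped, both populations being sorted as CD24low.

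Of 13446 genes tested in NRG1 mice, 1554 differed between Lgr5high and Lgr5med cells (11.6% of those tested; edgeR quasi-likelihood test with the mouse as a block, adjusted p under 0.05). Of these, 677 were higher in Lgr5high (5.03%) and 877 were lower (6.52%). Large differences lay mostly on the lower side, since 366 genes were lower and 68 were higher by more than 2-fold. The count was 794 without replicate 1, and 733 when the mouse was not in the fit as a block. In PBS mice the same test called 2930 of 13287 genes (22.1%), 1272 of them higher (9.57%) and 1658 lower (12.5%), with 289 and 623 past 2-fold. That count was 1925 without PBS replicate 3 and 1612 without the block.

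Most genes called in NRG1 mice were called in PBS mice too. Among 12946 genes tested in both, 1094 were called in both, which is 71.0% of the genes called in NRG1 mice and 38.2% of those called in PBS mice, and all of these had the same direction. Whether a gene's difference itself differed between treatments was tested as an interaction. It passed for 1 of 14179 genes (0.00705%), Smim24, although 1548 genes had an unadjusted p under 0.05 and DESeq2 called 77. The number of calls in each treatment therefore does not show that the populations were closer under NRG1.

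The distance between the populations was also taken as a single value per mouse. The root mean square log2 CPM difference between the Lgr5high and Lgr5med libraries of a mouse, over 14179 genes, was 0.620, 0.585 and 0.840 in the NRG1 mice and 0.744, 0.675 and 0.851 in the PBS mice. The treatments overlapped, with means of 0.682 ± 0.138 and 0.757 ± 0.0889 (SD, n = 3) and a two-sided exact permutation p of 0.5, where 0.1 is the smallest possible. Libraries of the same population from different mice of a treatment lay 0.508 to 0.633 apart, a range that holds the within-mouse values of NRG1 replicates 1 and 2.

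**Figure D1:**
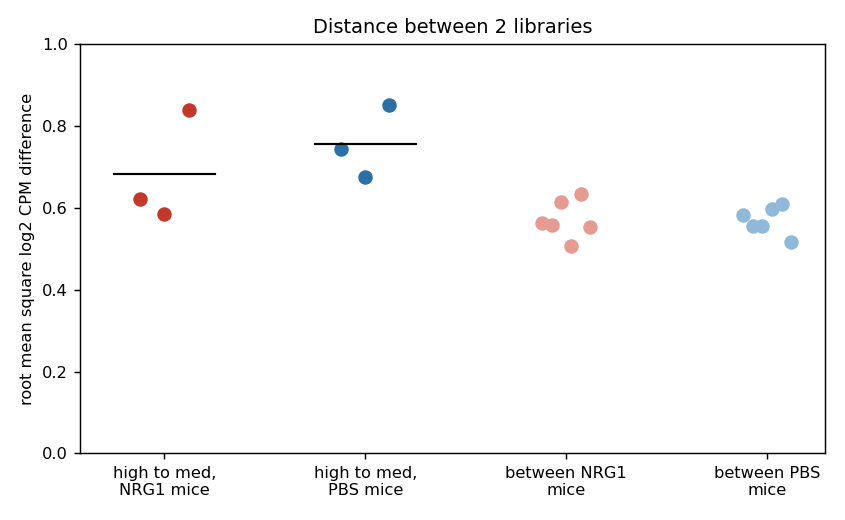
Root mean square log2 CPM difference between 2 libraries over 14179 genes (vertical axis), for Lgr5high against Lgr5med of 1 mouse in NRG1 and PBS mice (1 point per mouse, line at the mean) and for pairs of mice within a population and treatment. NRG1 mice lie at 0.585 to 0.840 and PBS mice at 0.675 to 0.851.

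Stem cell genes were higher in Lgr5high cells but by modest amounts. Of 30 stem cell markers tested, 26 were higher and none was lower, with a median log2 difference of 0.64, against -0.01 over all genes tested; Lgr5 is among the 26. Without replicate 1, 18 were higher. Prom1, Gkn3, Agr3 and Lgr4 did not pass. Olfm4, a secreted glycoprotein of crypt base cells, was at 2684, 2568 and 2278 CPM in Lgr5high and 1679, 1793 and 1378 CPM in Lgr5med libraries (log2 difference 0.64, SE 0.121, edgeR adjusted p = 0.00289; chromosome 14, 79984081 to 80023139). Its lowest Lgr5high library stood above its highest Lgr5med library, and its adjusted p was 0.0538 without replicate 1.

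Ascl2, the transcription factor that maintains crypt base stem cells, was at 58.99, 69.2 and 84.9 CPM against 30.1, 38.7 and 37.5 CPM (log2 difference 1.00, SE 0.107, edgeR adjusted p = 2.79e-05; chromosome 7, 142966829 to 142969264). The groups did not overlap. Smoc2, a matricellular protein of the same cells, was at 134 ± 25.2 against 93.9 ± 25.1 CPM (SD, n = 3). Its groups overlapped between mice although each mouse went the same way, and it passed with the mouse as a block (log2 difference 0.53, edgeR adjusted p = 0.00305).

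Wnt targets and feedback genes followed, with 16 of 25 higher and 1 lower (median log2 difference 0.55). Axin2, the negative feedback scaffold of the pathway, was at 314, 298 and 298 CPM in Lgr5high and at 209, 177 and 140 CPM in Lgr5med libraries (log2 difference 0.81, SE 0.113, edgeR adjusted p = 0.000285; chromosome 11, 108920349 to 108950783). The Lgr5high libraries lay close together and the Lgr5med libraries were spread. Rnf43, the ubiquitin ligase that removes Wnt receptors, was at 115 ± 12.1 against 71.6 ± 16.5 CPM (SD, n = 3; log2 difference 0.70). Tnfrsf19, a Wnt-induced receptor, was at 27.8 ± 4.65 against 11.3 ± 5.15 CPM (log2 difference 1.37, edgeR adjusted p = 0.000145).

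Apcdd1, a Wnt inhibitor at the cell surface, was low at 1.84 ± 0.490 against 0.489 ± 0.312 CPM (SD, n = 3), and its edgeR adjusted p of 0.0253 became 0.0658 without replicate 2 and 0.11 without replicate 3. Sox9, a Wnt target and crypt transcription factor, was higher by 0.53, and Cd44, a hyaluronan receptor, by 0.85 on the log2 scale. Myc was higher by 0.46 (edgeR adjusted p = 0.0158, and 0.056 without replicate 1). Ccnd1, which encodes cyclin D1, was at 85.9 ± 11.4 and 74.2 ± 11.3 CPM and did not pass (edgeR adjusted p = 0.182). Ccnd2, which encodes cyclin D2, was the member that was lower, at 144 ± 23.3 against 202 ± 42.5 CPM (log2 difference -0.47, edgeR adjusted p = 0.00718, and 0.0659 without replicate 1).

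Of 17 Wnt receptors and R-spondin module genes, 6 were higher and none lower, among them Fzd2 at 12.3 ± 0.684 against 6.79 ± 0.524 CPM (SD, n = 3). Eph receptors and ephrins, which position cells along the crypt axis, split by member, beside 5.03% of all genes higher and 6.52% lower. The receptor Ephb3 was higher at 44.9 ± 6.35 against 25.2 ± 3.71 CPM (log2 difference 0.83), and its group held 4 higher members of 13, or 2 without replicate 1 and 2 without replicate 2. The ligand Efnb2 was the 1 lower member, at 9.60, 9.78 and 9.35 CPM in Lgr5high and 18.6, 21.6 and 31.5 CPM in Lgr5med libraries (log2 difference -1.28, SE 0.165, edgeR adjusted p = 0.000158). Efna4, another ligand, was higher by 0.80.

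**Figure D2:**
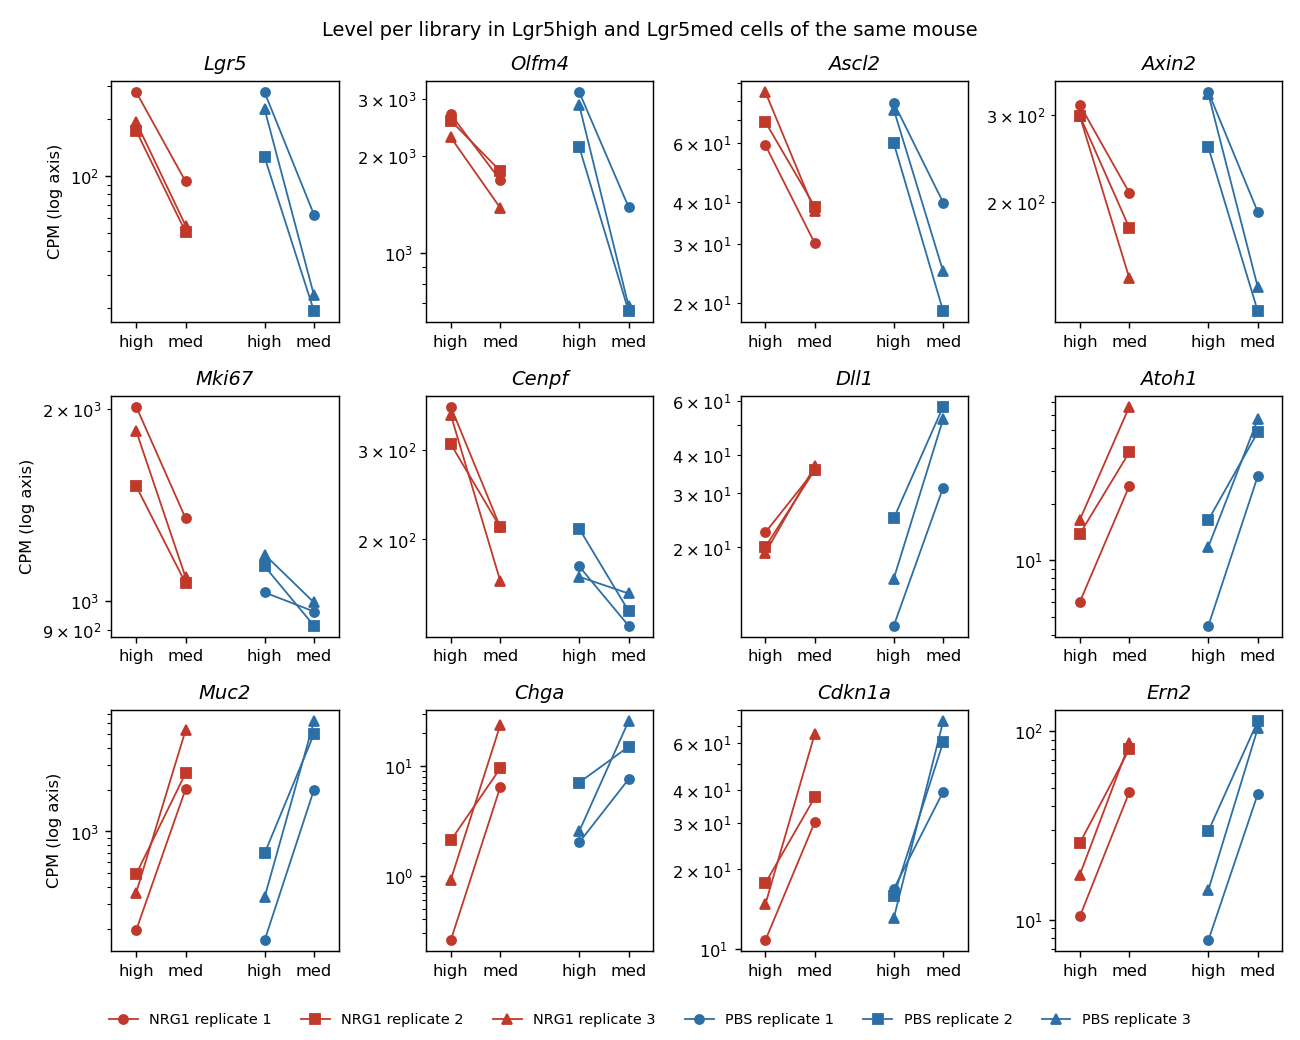
CPM per library (log axis) of 12 genes in Lgr5high and Lgr5med cells, with a line joining the libraries of 1 mouse, for NRG1 mice (red) and PBS mice (blue), each treatment scaled within its own 6 libraries. Olfm4 spans 1378 to 1793 CPM in the Lgr5med libraries of NRG1 mice, and Mki67 lies at 1512 to 2014 CPM in the Lgr5high and 1066 to 1347 CPM in the Lgr5med libraries of NRG1 mice.

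The 12 largest rises toward Lgr5high among well-expressed genes included genes outside the lists. Rdh1, a retinol dehydrogenase, was at 18.8, 8.20 and 10.6 CPM against 3.34, 2.38 and 1.02 CPM (log2 difference 2.47, SE 0.261, edgeR adjusted p = 3.66e-05; chromosome 10, 127759721 to 127768297). Kif26b, a kinesin-like protein, stood at 13.6 ± 6.79 against 2.59 ± 0.362 CPM (SD, n = 3; log2 difference 2.29). Fstl4, a follistatin-like protein, differed by 2.23. Only genes whose groups did not overlap could enter this list, so the separation of its genes is a condition of the choice and not a result. Esr1, the estrogen receptor alpha gene, was at 27.1, 14.8 and 21.1 CPM against 9.40, 5.89 and 3.18 CPM (log2 difference 1.81, SE 0.226, edgeR adjusted p = 0.000239; chromosome 10, 4611593 to 5005614). Cbs, the cystathionine beta-synthase gene of sulphur amino acid metabolism, differed by 1.52. Limch1 (1.94), Bex1 (1.84), Pxdn (1.49), Gas7 (1.43), Gramd1a (1.42) and Rgs7bp (1.41) filled the list with Lgr5. The log2 differences of these genes in PBS mice were 2.34 for Rdh1, 2.98 for Kif26b, 3.78 for Fstl4, 2.05 for Esr1 and 2.27 for Cbs, and none passed the interaction test.

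Mitotic genes were higher in the Lgr5high cells of NRG1 mice as a group. Of 35 genes of G2 phase and mitosis, 31 were higher and none lower, with a median log2 difference of 0.52. The count was 18 without replicate 1, 27 without replicate 2 or replicate 3, 14 in a fit of all 12 NRG1 libraries and 19 with no replicate block. Ccnb2, Ccna2, Mad2l1 and Birc5 did not pass. In PBS mice 5 of the 35 passed, all higher, with a median of 0.10, beside 9.57% of all genes higher in those mice. The medians within single mice were 0.49, 0.36 and 0.72 in NRG1 mice and 0.09, 0.14 and 0.08 in PBS mice, and the lowest NRG1 mouse lay above the highest PBS mouse. Other lists, named below with the stem cell markers, also separated by treatment. In the interaction test none of the 35 passed by edgeR, while 26 had an unadjusted p under 0.05 and 34 had the larger difference in NRG1 mice (median 0.40). Of all 14179 genes in that test, 1548 had an unadjusted p under 0.05 and 7234 had a positive NRG1 minus PBS difference.

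Mki67, the proliferation marker, was at 2014, 1512 and 1845 CPM in Lgr5high and 1347, 1066 and 1089 CPM in Lgr5med libraries of NRG1 mice (log2 difference 0.62, SE 0.119, edgeR adjusted p = 0.00334; chromosome 7, 135689784 to 135716361). All Lgr5high libraries were above all Lgr5med libraries. In PBS mice it was at 1031, 1133 and 1182 CPM against 963, 915 and 995 CPM, and did not pass (log2 difference 0.22, edgeR adjusted p = 0.192). The difference of 0.41 between the treatments had an adjusted p of 0.346 (edgeR).

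Cenpf, a kinetochore protein gene, was at 366, 308 and 352 CPM against 212, 211 and 166 CPM in NRG1 mice (log2 difference 0.81, SE 0.115, edgeR adjusted p = 0.00036). Cenpe, the kinetochore motor, was at 370, 315 and 378 CPM against 224, 254 and 170 CPM (log2 difference 0.73, edgeR adjusted p = 0.00339). Neither gene overlapped between the groups. In PBS mice Cenpf differed by 0.35 (edgeR adjusted p = 0.0181) and Cenpe by 0.03 (0.887). Cdc20, the activator of the anaphase-promoting complex, was chosen after its values were seen. It was at 72.3, 73.5 and 82.9 CPM against 56.3, 44.5 and 51.4 CPM in NRG1 mice (log2 difference 0.59, edgeR adjusted p = 0.0019) and at 37.4, 25.6 and 29.3 against 38.8, 37.3 and 31.4 CPM in PBS mice. Every NRG1 mouse was higher and every PBS mouse lower in Lgr5high, and the difference of 0.84 had an adjusted p of 0.0739 (edgeR). Exons of Cdc20 overlap those of Elovl1, and the counting's strand setting is not given in the sources used here.

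Many mitotic genes carry near their start a short element, the cell cycle genes homology region (CHR), at which repressor and activator complexes built on MuvB are known to bind. In promoter windows of 300 bases (250 before to 50 after the start, RefSeq on GRCm38.p6), the letters TTTGAA or TTCGAA, on either strand, occurred in 23 of the 27 higher mitotic genes that had a window (85.2%) and in 21.7% of 27025 genes. In the whole mitotic list, called or not, they occurred in 24 of 30 genes with a window (80%). The share thus describes the list and not the difference between the populations. The stretches of Cdc20, Ube2c (a ubiquitin-conjugating enzyme of mitotic exit), Kif11 (the spindle motor Eg5) and Kif2c (a microtubule-depolymerising kinesin) are printed 5′ to 3′ on the gene's strand to show the element, in capitals. TTCAAA is TTTGAA read on the other strand. They were chosen after the values were seen, as examples of genes with a single match before the start. Prc1 also had such a match and is not printed. The printed matches begin at -18 (Cdc20), -29 (Ube2c), -19 (Kif11) and -103 (Kif2c) bases from the start, so that of Kif2c lies farther away.
Cdc20: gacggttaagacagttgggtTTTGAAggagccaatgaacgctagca
Ube2c: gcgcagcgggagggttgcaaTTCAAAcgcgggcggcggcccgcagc
Kif11: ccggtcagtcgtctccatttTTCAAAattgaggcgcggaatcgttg
Kif2c: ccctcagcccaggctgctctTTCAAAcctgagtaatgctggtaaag
They lie at chr4:118437336-118437381 (minus strand), chr2:164769880-164769925 (plus), chr19:37376343-37376388 (plus) and chr4:117178850-117178895 (minus). The log2 differences in NRG1 mice were 0.65 for Ube2c, 0.51 for Kif11 and 0.67 for Kif2c, and in PBS mice 0.06, 0.14 and 0.05. A match is a description of the letters and not a test of binding.

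Genes of S phase and DNA replication did not share this. Of 40 tested, 2 were higher (Mcm10 by 0.36 and Chaf1a by 0.51) and 1 was lower, Ung, with a median log2 difference of 0.02. Over all genes tested, 5.03% were higher and 6.52% lower, so these calls do not set the list apart. The calls of Mcm10 and Chaf1a were lost with any 1 mouse left out, at edgeR adjusted p of 0.054 to 0.247, and exons of Chaf1a overlap those of Ubxn6, so its counts may be shared. In PBS mice 11 of the 40 were higher and none lower, with a median of 0.28, beside 9.57% and 12.5% of all genes in those mice. The interaction had a median of -0.22 with no gene of the list passing by edgeR. There 12 of the 40 had an unadjusted p under 0.05, beside 1548 of all 14179 genes. Ung, the uracil-DNA glycosylase gene, was at 13.5, 13.7 and 11.3 CPM in Lgr5high and 23.5, 19.6 and 15.1 CPM in Lgr5med libraries (log2 difference -0.58, SE 0.144, edgeR adjusted p = 0.016; chromosome 5, 114130386 to 114139323). Its adjusted p was 0.239 without replicate 1 and 0.0906 without replicate 2. In PBS mice, scaled separately, Ung was at 83.6, 105 and 65.0 CPM against 100.2, 85.5 and 73.0 CPM. E2f1, which encodes a transcription factor of S phase entry, was at 5.49 ± 1.56 and 5.52 ± 0.226 CPM in NRG1 mice (SD, n = 3; edgeR adjusted p = 0.948).

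Cell cycle inhibitors went the other way for single genes. Cdkn1a, which encodes p21, was at 10.8, 17.7 and 14.7 CPM in Lgr5high and 30.2, 37.5 and 65.2 CPM in Lgr5med libraries (log2 difference -1.57, SE 0.173, edgeR adjusted p = 8.09e-05; chromosome 17, 29090976 to 29100727). The highest Lgr5high library was well below the lowest Lgr5med library. Cdkn2b, which encodes p15, was at 0.563 ± 0.471 against 2.99 ± 0.654 CPM (log2 difference -2.54, edgeR adjusted p = 0.0067). Cdkn1b, which encodes p27, was at 74.5 ± 6.69 and 67.8 ± 7.62 CPM and did not pass (edgeR adjusted p = 0.413). Of 26 inhibitors and p53 targets, 5 were lower and 2 were higher (Ppm1d by 0.53 and Ccng2 by 0.52), beside 6.52% and 5.03% of all genes. Without replicate 1 the counts were 3 and 0. Without replicate 2 or replicate 3, 3 were lower and 1 was higher. Of 30 ribosome biogenesis genes none passed by edgeR in NRG1 mice and 3 had an unadjusted p under 0.05, with a median of 0.09 and single-mouse medians of 0.00, -0.03 and 0.38.

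**Figure D3:**
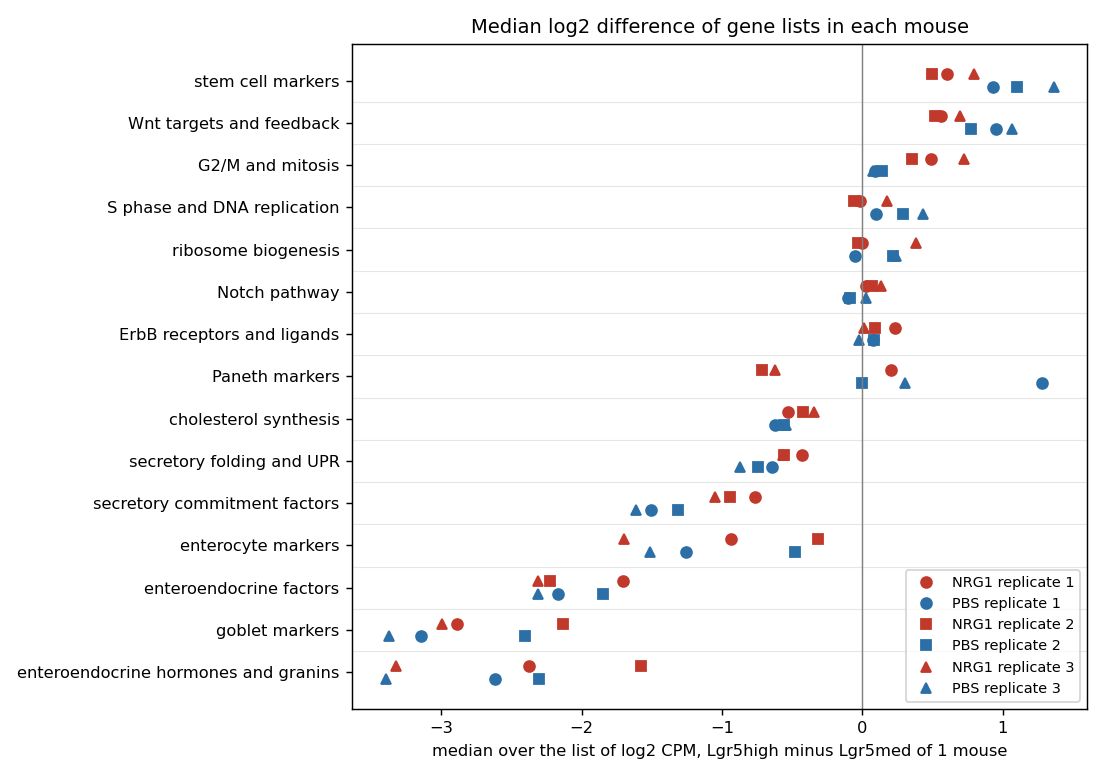
Median over a gene list of the log2 CPM difference between the Lgr5high and Lgr5med libraries of 1 mouse (horizontal axis), with 1 point per mouse for NRG1 (red) and PBS (blue). G2 and mitosis lies at 0.36 to 0.72 in NRG1 and 0.08 to 0.14 in PBS mice, while stem cell markers lie at 0.49 to 0.80 and 0.93 to 1.37.

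Of 18 Notch pathway genes, 3 were higher in Lgr5high cells and 2 were lower, beside 5.03% and 6.52% of all genes tested. The receptors Notch1 (91.1 ± 7.58 against 55.6 ± 6.29 CPM, SD, n = 3; log2 difference 0.72, edgeR adjusted p = 0.000203) and Notch2 (log2 difference 0.52) were higher in Lgr5high cells. The ligand Dll1, by which secretory progenitors signal to their neighbours, was at 22.4, 20.1 and 19.2 CPM in Lgr5high and 35.7, 35.8 and 36.8 CPM in Lgr5med libraries (log2 difference -0.82, SE 0.121, edgeR adjusted p = 0.00047; chromosome 17, 15367354 to 15376872). Both groups were tight and far apart. Dll4, the other ligand, was lower by 0.87 on the log2 scale (log2 difference -0.87). Dtx4, of the Deltex family of Notch regulators, was the third higher gene, at 68.1 ± 9.33 against 48.1 ± 10.0 CPM (SD, n = 3), and was named to complete the count. Hes1, a direct Notch target, was at 36.6 ± 5.91 and 30.2 ± 1.21 CPM and did not pass (edgeR adjusted p = 0.176). Exons of Dll1 and of Dll4 overlap a neighbouring annotated gene that drew counts of its own, so part of their counts may be shared.

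Secretory commitment factors were lower in Lgr5high cells, 12 of 17 with none higher and a median log2 difference of -0.88. Atoh1, the switch into the secretory lineages, was at 6.01, 13.9 and 16.5 CPM in Lgr5high and 25.0, 37.9 and 66.4 CPM in Lgr5med libraries (log2 difference -1.82, SE 0.144, edgeR adjusted p = 1.22e-06; chromosome 6, 64729125 to 64731245). The order of the mice was the same in both populations, and the groups did not overlap. Spdef, which drives goblet and Paneth maturation, was at 2.59 ± 1.19 against 14.3 ± 4.41 CPM (SD, n = 3; log2 difference -2.50). Neurog3, which starts enteroendocrine fate, was at 1.61 ± 0.730 against 5.26 ± 0.755 CPM (log2 difference -1.76, edgeR adjusted p = 0.00168). Insm1, a factor of the same lineage, differed by -2.13. In PBS mice 13 of the listed factors were lower and 1 higher, with a median of -1.63. Single-mouse medians were -0.76, -0.95 and -1.05 in NRG1 mice and -1.51, -1.31 and -1.61 in PBS mice, which did not overlap, as for other lists named below. The NRG1 minus PBS difference was positive for 15 of 17 factors (median 0.30), beside 7234 of all 14179 genes. None of the factors passed the interaction test by edgeR, and 5 had an unadjusted p under 0.05, beside 1548 of all genes.

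Goblet cell genes were lower almost throughout. Of 21 tested, 19 were lower in Lgr5high cells and none higher, with a median log2 difference of -2.64 (20 lower and 1 higher in PBS mice, median -3.00). In sorted bulk RNA, fewer cells of a type and less RNA per cell cannot be told apart. Muc2, the gel-forming mucin, was at 195, 494 and 364 CPM in Lgr5high and 2015, 2621 and 5334 CPM in Lgr5med libraries (log2 difference -3.22, SE 0.276, edgeR adjusted p = 0.000479; chromosome 7, 141690340 to 141754693). Every Lgr5med library held at least 4 times the highest Lgr5high level. Fcgbp, a mucus protein, was at 150, 330 and 248 CPM against 2031, 2693 and 4500 CPM (log2 difference -3.66, SE 0.201, edgeR adjusted p = 5.72e-07). Rep15, a Rab-binding protein, was at 3.94 ± 1.55 against 45.4 ± 20.7 CPM (log2 difference -3.49). Agr2, the disulfide isomerase needed for mucin folding, was at 56.3, 134 and 159 CPM against 442, 743 and 1216 CPM (log2 difference -2.79, edgeR adjusted p = 1.01e-08). The deposited symbol Clca3 was also among the 12 largest falls (log2 difference -4.30, edgeR adjusted p = 0.0157, and 0.0843 without replicate 1 or 0.286 without replicate 3), but it could not be tied to 1 gene of the annotation. As a share of counts outside the mitochondrial ribosomal RNAs, goblet markers made up 0.204% ± 0.073 in Lgr5high and 1.90% ± 0.85 in Lgr5med libraries (SD, n = 3), with a two-sided exact paired permutation p of 0.25, the smallest that 3 pairs allow.

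Scin, which encodes the actin-severing protein adseverin, was at 2.16, 4.28 and 3.41 CPM against 41.7, 47.8 and 68.6 CPM (log2 difference -4.00, SE 0.176, edgeR adjusted p = 1.01e-08; chromosome 12, 40059769 to 40134228). Its lowest Lgr5med library was far above its highest Lgr5high library, although non-overlap was a condition for the 12 largest falls. P2ry4, a nucleotide receptor, differed by -3.75, and Kcnk6, a potassium channel, by -3.61. Fhl1 (-3.46), Fer1l6 (-3.46, edgeR adjusted p = 0.00393, and 0.159 without replicate 1) and Pde2a (-3.22) completed the falls outside the lists. In PBS mice Scin differed by -3.96 and Kcnk6 by -3.41.

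Enteroendocrine hormones and granins were lower for 14 of 17 genes with none higher (median log2 difference -2.82), and 10 were lower without replicate 1. The 17 are those of 24 listed that passed the low-count filter. A gene near 0 in Lgr5high can pass it through Lgr5med alone, which partly fixes its direction. Gcg, which encodes proglucagon, was at 0.462, 4.05 and 6.81 CPM against 21.8, 42.6 and 90.6 CPM (log2 difference -3.87, SE 0.269, edgeR adjusted p = 5.24e-05; chromosome 2, 62474530 to 62483650). Chga, the granin that marks the lineage, was at 0.257, 2.10 and 0.915 CPM against 6.40, 9.52 and 23.5 CPM (log2 difference -3.54, SE 0.484, edgeR adjusted p = 0.00364, and 0.0628 without replicate 1). Cck, which encodes cholecystokinin, was at 0.308, 1.44 and 0.153 CPM against 6.95, 16.5 and 32.0 CPM (log2 difference -4.76, edgeR adjusted p = 0.0252, and 0.412 without replicate 1). Replicate 3 had the highest Lgr5med level of all 3 genes. Nts, which encodes neurotensin, was at 0.103, 0.373 and 0 CPM in Lgr5high, at or near the level of 3 counts, and at 2.45, 4.63 and 11.1 CPM in Lgr5med libraries (edgeR adjusted p = 0.000378).

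Of 21 listed enteroendocrine transcription factors and partners, 15 passed the low-count filter. Of these, 10 were lower and none higher (median log2 difference -2.13). A gene near 0 in Lgr5high can pass that filter through Lgr5med alone, so the direction of such members was partly fixed by the filter. Neurod1 was at 0.411, 0.326 and 0.305 CPM against 2.95, 3.01 and 5.05 CPM (log2 difference -3.34, SE 0.419, edgeR adjusted p = 0.000121; chromosome 2, 79452521 to 79456751). The groups did not overlap, and all Lgr5high libraries were only a few counts above 0. Lmx1a was at 0.0482 ± 0.0466 CPM in Lgr5high, under that level, and at 1.56 ± 0.794 CPM in Lgr5med libraries (SD, n = 3; edgeR adjusted p = 0.00128).

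Genes of protein folding in the secretory pathway and of the unfolded protein response were lower in Lgr5high cells, 18 of 27 with none higher (median log2 difference -0.54). The goblet genes fell with them, at the shares given above, and the part of goblet content in this group was not tested. Ern2, the endoplasmic reticulum stress sensor IRE1β of mucous cells, was at 10.4, 25.5 and 17.3 CPM against 47.5, 80.2 and 85.9 CPM (log2 difference -2.04, SE 0.133, edgeR adjusted p = 4.26e-07; chromosome 7, 122169893 to 122186207). Hspa5, the chaperone BiP, which was named after its values were seen, was at 179, 194 and 221 CPM against 273, 337 and 328 CPM (log2 difference -0.66, SE 0.102, edgeR adjusted p = 0.000647). Neither gene overlapped between the populations. In PBS mice 24 of the list were lower and none higher (median -0.71).

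Promoters of this pathway are known for the endoplasmic reticulum stress element, CCAAT followed by 9 bases and CCACG, which NF-Y and ATF6 or XBP1 bind. Searched on both strands in the same windows, it occurred in 5 of the 14 lower genes that had a window (35.7%) and in 0.137% of 27025 genes. In the whole folding list, called or not, it occurred in 7 of 22 genes with a window (31.8%). The share thus describes the list and not the difference between the populations. A CCAAT motif counted by itself overlaps the element, and occurs in 41.1% of all windows. The stretches of Hspa5, Pdia6 (a disulfide isomerase), Calr (calreticulin) and Creld2 (a cysteine-rich chaperone partner) are shown with the whole element in capitals, CGTGG being CCACG on the other strand.
Hspa5: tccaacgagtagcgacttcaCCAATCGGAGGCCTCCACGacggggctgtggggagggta
Pdia6: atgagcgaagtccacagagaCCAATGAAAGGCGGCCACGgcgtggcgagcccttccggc
Calr: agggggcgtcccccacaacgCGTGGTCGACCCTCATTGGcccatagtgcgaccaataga
Creld2: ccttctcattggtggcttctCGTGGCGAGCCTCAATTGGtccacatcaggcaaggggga
They lie at chr2:34772005-34772063 (plus strand), chr12:17266471-17266529 (plus), chr8:84847055-84847113 (minus) and chr15:88819500-88819558 (plus) and were chosen after the values were seen. The log2 differences in NRG1 mice were -0.78 for Pdia6, -0.66 for Calr and -0.52 for Creld2, whose edgeR adjusted p of 0.0391 became 0.23 without replicate 1 and 0.27 without replicate 2.

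Cholesterol synthesis genes were lower for 10 of 25 with none higher (median log2 difference -0.45), and for 6 without replicate 1. Msmo1, a sterol demethylation enzyme, was at 5.80 ± 1.37 against 11.5 ± 3.80 CPM and Sc5d, a sterol desaturase, at 9.13 ± 0.976 against 17.97 ± 3.69 CPM (SD, n = 3; both log2 differences -0.96). In PBS mice 15 were lower.

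Enterocyte genes separated the populations less firmly. Of 34 tested, 8 were lower and none higher, with a median log2 difference of -1.10, and leaving out a mouse moved the count to 4 (replicate 1), 21 (replicate 2) or 10 lower and 1 higher (replicate 3). Alpi, the brush border alkaline phosphatase, was at 7.96, 29.4 and 9.81 CPM against 22.6, 36.3 and 36.4 CPM and did not pass (log2 difference -1.19, edgeR adjusted p = 0.0812). Fabp1, a fatty acid binding protein, was at 12.8, 46.5 and 12.4 CPM against 49.2, 62.0 and 52.1 CPM (edgeR adjusted p = 0.182). The Lgr5high library of replicate 2 was the high one for both genes. Without replicate 2 the edgeR adjusted p was 2.9e-05 for Alpi and 5.02e-07 for Fabp1. Of 22 absorptive lineage factors, 6 were lower and 1 higher, beside 6.52% and 5.03% of all genes. Klf4, a factor of differentiated epithelium, was at 14.0, 16.6 and 13.6 CPM against 37.0, 55.5 and 70.2 CPM (log2 difference -1.84, edgeR adjusted p = 9.05e-06). Bcl2l15 differed by -1.72, and Vdr, the vitamin D receptor, was higher by 0.37 (edgeR adjusted p = 0.0407, above 0.05 with any 1 mouse left out).

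A minority of the Paneth and tuft cell genes passed the test, beside 5.03% of all genes tested higher and 6.52% lower. Lyz1, the Paneth lysozyme, was at 1325, 1510 and 895 CPM against 617, 2269 and 1057 CPM (log2 difference 0.08, edgeR adjusted p = 0.935). The mice disagreed in direction, replicate 1 being higher and the other two lower in Lgr5high. Of 24 Paneth markers 6 were lower and none higher (median log2 difference -0.41), and 12 were lower without replicate 1; defensin genes are near-identical copies whose counts may be split between them. In PBS mice 5 of the listed Paneth markers were higher and 4 lower (median 0.48), beside 9.57% and 12.5% of all genes. The NRG1 minus PBS difference had a median of -0.86 and was negative for 23 of 25 genes, beside 6945 of all 14179 genes. None of the 25 passed the interaction test by edgeR, and 10 had an unadjusted p under 0.05, beside 1548 of all genes. Single-mouse medians were 0.20, -0.72 and -0.62 in NRG1 mice and 1.28, -0.003 and 0.30 in PBS mice, which overlapped. Dclk1, a tuft cell kinase, was at 0, 0.512 and 0 CPM against 0.668, 2.02 and 1.70 CPM (edgeR adjusted p = 0.0132), and it and Trpm5 were the 2 lower of 9 tuft markers. Only these 9 of 22 tuft markers with counts listed passed the low-count filter. A gene near 0 in Lgr5high, such as Dclk1, can pass it through Lgr5med alone. The median of the 9 was -1.05, with single-mouse medians of -0.65, -1.26 and -1.73. As a share of counts outside the mitochondrial ribosomal RNAs, however, the tuft list was nearly equal. It made up 0.0993% ± 0.016 in Lgr5high and 0.0998% ± 0.027 in Lgr5med libraries (SD, n = 3). Leaving out a mouse gave 4 lower (replicate 1), 1 (replicate 2) or 2 (replicate 3), and DESeq2 called none. Exons of Trpm5 overlap those of Tssc4, so its counts may be shared.

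Erbb3, the receptor for the injected ligand that these cells express, and its partners Erbb2 and Egfr did not pass the test. Erbb4, the other receptor, had 1 count over the 6 libraries. Erbb3 was at 284, 279 and 240 CPM against 245, 252 and 241 CPM (log2 difference 0.12, SE 0.102, edgeR adjusted p = 0.527; chromosome 10, 128567523 to 128589652). Erbb2 was at 89.2 ± 5.28 and 79.9 ± 6.28 CPM, and Egfr at 84.8 ± 3.95 and 81.3 ± 10.2 CPM (SD, n = 3; edgeR adjusted p = 0.332 and 0.726). Each of these 3 genes overlapped between the groups, and exons of Erbb2 overlap those of Mien1, so its counts may be shared. Of 16 ErbB receptors, ligands and regulators, 2 were higher and 1 was lower, beside 5.03% and 6.52% of all genes, and none was called without replicate 2 or in the fit of all 12 NRG1 libraries. Lrig1, an ErbB inhibitor and stem cell marker, was at 118, 116 and 118 CPM against 87.7, 87.5 and 91.8 CPM (log2 difference 0.40, edgeR adjusted p = 0.011, then 0.113 without replicate 1 and 0.0712 without replicate 2). Nrg4, a ligand of ERBB4, was higher by 0.82 and Egf lower (log2 difference -1.76), and leaving out replicate 2 took the edgeR adjusted p to 0.139 and 0.173. Exons of Nrg4 overlap those of Fbxo22, so its counts may be shared. Of 17 ERK feedback and ETS target genes, 3 were higher and none lower, beside the same 5.03% and 6.52% of all genes. Among the higher were Il17rd (0.88) and Phlda1 (0.84), both of which are also inhibitors of receptor signalling. MHC class II genes had 1 higher of 8, beside 5.03% of all genes. It was the invariant chain gene Cd74, at 47.5, 24.4 and 16.3 CPM against 19.1, 9.97 and 3.57 CPM (log2 difference 1.54, edgeR adjusted p = 5.54e-05). Each mouse had the higher level in Lgr5high, although the mice differed so much that the groups overlapped.

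Most of the differences continued into Lgr5low cells. Of the 677 genes higher in Lgr5high cells, the mean in Lgr5low cells of the NRG1 mice was below the Lgr5med mean for 577 and between the 2 populations for 96. Of the 877 lower genes, the Lgr5low mean was above the Lgr5med mean for 800. As shares of the counts outside mt-Rnr1 and mt-Rnr2, stem cell markers made up 2.19% ± 0.19 in Lgr5high, 1.47% ± 0.22 in Lgr5med, 0.717% ± 0.19 in Lgr5low and 0.107% ± 0.016 in Lgr5neg libraries (SD, n = 3). Genes of G2 and mitosis fell from 1.23% ± 0.14 to 0.832% ± 0.053 and 0.633% ± 0.078, whereas S phase genes were at 0.217% ± 0.018, 0.210% ± 0.018 and 0.166% ± 0.023. Goblet markers peaked in Lgr5low libraries at 4.56% ± 1.5, and enterocyte markers reached 8.32% ± 1.1 in Lgr5neg libraries against 0.504% ± 0.11 in Lgr5high. These shares are given as descriptions over 3 mice.

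**Figure D4:**
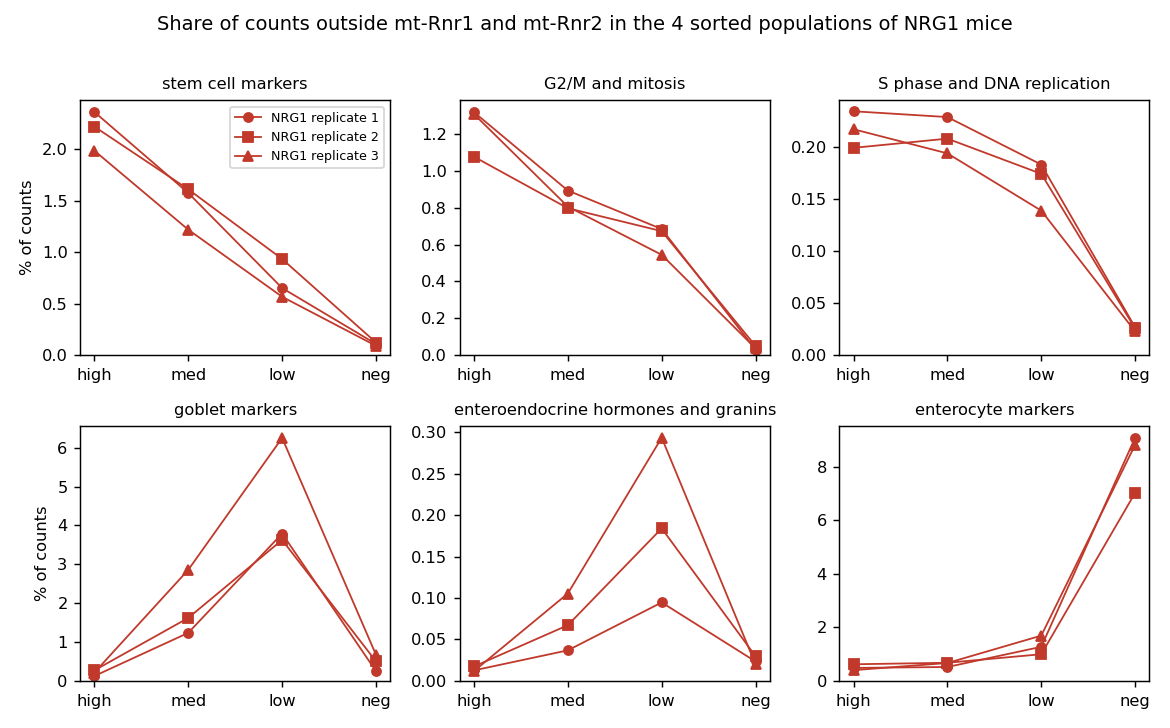
Percent of each library's counts outside mt-Rnr1 and mt-Rnr2 (vertical axes, from 0) in 6 gene lists across the 4 sorted populations of NRG1 mice, with 1 line per mouse. Stem cell markers fall at each gate from 2.19% to 0.107% on average, while goblet and enteroendocrine genes are highest in Lgr5low cells.

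The treatments are set side by side here as values, since few interactions could be called. Stem cell markers had a median log2 difference of 0.64 in NRG1 mice and 1.10 in PBS mice, where all 30 were higher, and 28 of the 30 had the smaller difference in NRG1 mice. Within single mice the medians were 0.60, 0.49 and 0.80 under NRG1 and 0.93, 1.10 and 1.37 under PBS, which did not overlap. Other lists without overlap included mitosis, secretory commitment, Wnt targets, absorptive lineage factors, ERK feedback, cholesterol synthesis and folding genes. Non-overlap was thus not particular to 1 list, and with 3 against 3 mice an exact permutation p cannot be under 0.1. For Olfm4 the NRG1 minus PBS difference was -0.99 (SE 0.198, edgeR adjusted p = 0.0913), with PBS levels of 3149, 2127 and 2870 CPM against 1385, 658 and 683 CPM. For Lgr5 it was -0.95 (SE 0.225, edgeR adjusted p = 0.159), so the gate gene itself was separated by a smaller ratio in the NRG1 sort, and its part in the other stem cell genes was not tested. None of the 30 passed the interaction test by edgeR, and 20 had an unadjusted p under 0.05. Of all 14179 genes, 1548 had such a p and 6945 had a negative NRG1 minus PBS difference.

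The 1 gene that passed, Smim24, encodes a small membrane protein. It was at 83.4, 97.8 and 92.9 CPM in Lgr5high and 104, 119 and 116 CPM in Lgr5med libraries of NRG1 mice, and at 126, 108 and 101 CPM against 280, 273 and 341 CPM in PBS mice (chromosome 10, 81393051 to 81395392). The step was small in NRG1 mice and large in PBS mice, and the Lgr5med libraries of the treatments lay far apart. The log2 difference was -0.31 under NRG1 and -1.41 under PBS, an interaction of 1.12 (SE 0.15, edgeR adjusted p = 0.0069). Its adjusted p was 0.0921 without NRG1 replicate 2 and 0.0564 without PBS replicate 3. In Lgr5neg cells of NRG1 mice it was at 1383 ± 156 CPM (SD, n = 3), scaled over all 12 NRG1 libraries.

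**Figure D5:**
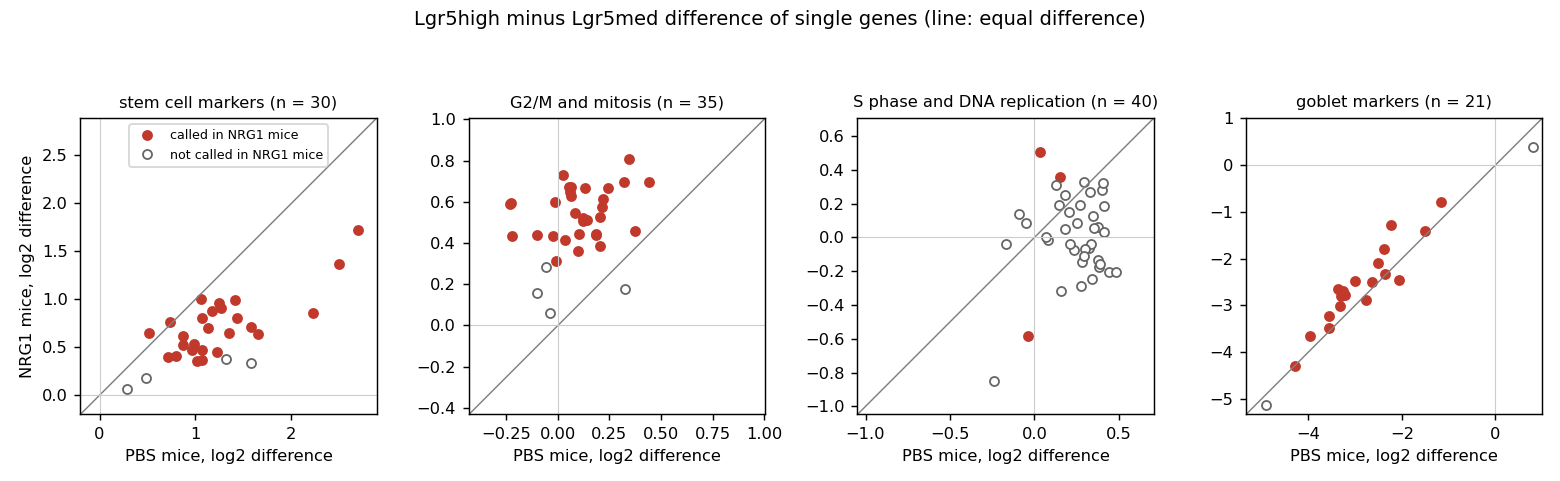
Log2 difference between Lgr5high and Lgr5med cells for single genes of 4 lists, in PBS mice (horizontal axis) and NRG1 mice (vertical axis), with filled points for genes called in NRG1 mice and a line at equality. Stem cell markers lie mostly under the line, and 34 of 35 genes of G2 and mitosis lie above it. In the interaction fit the median NRG1 minus PBS difference was -0.43 for stem cell markers and 0.40 for G2 and mitosis. For goblet markers it was 0.33, with 17 of 21 positive, beside 7234 of all 14179 genes.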

How the data were processed

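RNA of sorted cells of 1 animal per library was amplified (15 ng, Nugen Ovation V2) and sequenced as single 76 nt reads, per the labels' protocols. The authors deposited a table of raw counts per gene symbol; STAR, featureCounts and GRCm38 are named in the submitters' processing notes, while versions and strand setting are not given in the sources used here. Libraries of 1 mouse were recognised by the shared animal name in the labels. Their deviations from the group means correlated at 0.295, 0.174 and 0.0901 in NRG1 mice and 0.323, 0.244 and 0.158 in PBS mice, and the mouse was a block in each fit.

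Genes were filtered with filterByExpr (minimum count 10, minimum total 15), scaled by TMM within the 6 libraries of a treatment, and tested with edgeR 4.0.16 (robust quasi-likelihood, R 4.3.3) with Benjamini-Hochberg adjustment at 0.05. The interaction used all 12 libraries and 6 mice. DESeq2 1.42.0 and limma 3.58.1 were alternatives. CPM are not per length, so levels are compared within a gene only. log2 CPM for distances had a prior count of 2. The tests were checked on simulated data. Coordinates are from GENCODE on GRCm38, in which 39379 of 43280 deposited symbols matched 1 gene.

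Genes named were the 12 largest non-overlapping differences in each direction at an average log2 CPM of at least 2, up to 2 called members per list and direction, called interactions, and fixed genes of interest. Members and lists were chosen with earlier results of these data known. Hspa5, Pdia6, Calr, Creld2, Ube2c, Kif11, Kif2c and Cdc20 were named after their values were seen, as were genes named because they did not pass.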

Additional observations from a re-analysis of the deposited data

Results flagged for a closer look

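Smim24 differed between treatments in its Lgr5high minus Lgr5med step by 1.12 on the log2 scale, and that difference itself was tested (edgeR adjusted p = 0.0069, and 2.02e-09 to 0.0921 over the alternatives). The other genes listed here moved one way in all 3 NRG1 mice and the opposite way in all 3 PBS mice, without passing the test of the difference. Pif1, a DNA helicase gene chosen after its values were seen, was at 23.7, 24.2 and 28.2 CPM in Lgr5high and 16.1, 14.9 and 13.6 CPM in Lgr5med libraries of NRG1 mice. In PBS mice it was at 9.78, 12.3 and 7.67 CPM against 10.1, 15.7 and 12.5 CPM, and the treatments differed by 1.15 (edgeR adjusted p = 0.0605). Cdc20 differed by 0.84 (edgeR adjusted p = 0.0739).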

How the results depend on the processing

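With no replicate block, so that the pairing by mouse was not used, 733 genes were called in NRG1 mice in place of 1554, and 1612 in PBS mice in place of 2930. Without the block the calls fell from 26 to 16 for stem cell markers, from 14 to 7 for enteroendocrine hormones, from 18 to 9 for folding genes, from 8 to 1 for enterocyte markers and from 6 to 2 for Paneth markers. A fit of all 12 NRG1 libraries called 913, with 2 enterocyte and 3 Paneth markers. Leaving out 1 mouse gave 794 to 1454 calls in NRG1 mice (794 without replicate 1) and 1925 to 2125 in PBS mice (1925 without replicate 3). The interaction, with 1 call, had 77 by DESeq2, 169 with no filter on low counts, and 0 to 24 with 1 mouse left out: 0 without NRG1 replicate 2 or PBS replicate 3 and 24 without NRG1 replicate 3. The median of enteroendocrine hormones (-2.82) ranged from -3.90 to -2.16 with a mouse left out. That of enteroendocrine factors (-2.13) was -2.49 with no filter and -2.49 in the fit of 12 libraries. The cause of these changes was not tested, beyond the fewer mice in fits that left one out. Of 97 called named genes, 72 were called with any 1 mouse left out and 53 under every alternative that tested them, and none changed direction. Genes near 3 counts are limited by depth.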
